A study of Mus musculus with 24 samples.

Results

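Expression of 10 genes that mark vascular endothelial cells was described across white and brown fat cell cultures treated with a green tea catechin. They were Pecam1, Cdh5, Esam, Cldn5, Kdr, Flt1, Tek, Tie1, Emcn and Eng, chosen by symbol, and each symbol matched 1 gene, so that the set held 10 of the 37310 genes in the expression tables. The cultures had been started from the stromal vascular fraction (SVF) of 2 fat depots of C57BL/6 mice aged 6 weeks, the inguinal white depot (WAT) and the interscapular brown depot (BAT). SVF is the mixture of non-fat cells that collagenase releases from adipose tissue, and besides adipocyte precursors it can hold endothelial cells, mural cells and macrophages. All cultures, controls included, were grown to near confluence, held for 4 days in a medium with insulin, dexamethasone and 3-isobutyl-methylxanthine, and then in a medium with insulin and T3. Epigallocatechin gallate (EGCG) was given to the treated cultures and its solvent, DMSO, to the controls, and the labels state no dose of EGCG. RNA was sequenced on day 4 and day 8, which gave 8 groups of depot, day and treatment with 3 libraries each. The labels call the cells preadipocytes and do not say whether the replicates came from separate isolations or animals, so the p-values measure the spread between these libraries, which may be technical.

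Endothelial cells line blood vessels, and in fat they form a dense capillary bed that supplies the adipocytes. Their identity is read from a few membrane proteins. Pecam1 and VE-cadherin, the product of Cdh5, hold neighbouring endothelial cells together. Esam and claudin 5, the product of Cldn5, sit at the tight junctions. Kdr and Flt1 are receptors for vascular endothelial growth factor (VEGF), Kdr carrying most of its signal and Flt1 binding it tightly with weaker signalling. Tek is the receptor for the angiopoietins, and Tie1 is its partner. Emcn is a sialomucin of capillary and venous endothelium. Eng is a co-receptor for ligands of the transforming growth factor beta family and, unlike several of the others, is also known in activated macrophages and in mesenchymal stromal cells.

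The values were FPKM, the fragments per kilobase of gene length and scaled to the library's total on genes, so that levels of different genes can be set side by side per length. Replicates 1 and 2 stood in a table of 16 libraries with 39452696 to 52893848 reads on genes, and replicate 3 in a separately scaled table of 8 libraries with 16392420 to 41675643 reads. The first 16 libraries were tested, and replicate 3 was read for direction. One library stood apart, since the 5 highest genes of WAT day 8 EGCG replicate 3 took 61.0% of its reads, against 3.64% to 10.48% in the other 23 libraries. Its deposited values of all other genes therefore read low. A median-ratio factor over 14402 genes was taken among the 8 libraries of replicate 3 alone, without the first 2 replicates. It was 0.458 for that library, compared with 1.01 to 1.23 in the other libraries of replicate 3. Where a value of that library is given after division by this factor, it is called rescaled.

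On the mouse build mm9 with the GENCODE vM1 annotation, all 10 genes were protein coding. Eng (ENSMUSG00000026814.9) lies on the plus strand at chr2:32502115-32538189 and overlaps Ak1 and 2 small RNA genes on its own strand and Fpgs on the other. Pecam1 (ENSMUSG00000020717.11) lies on the minus strand at chr11:106515531-106611942, with a U3 snoRNA gene of the other strand inside it. Whether counting used the strand is not given in the sources used here, so reads from such overlaps cannot be told apart. The other 8 genes overlapped no annotated gene. Cdh5 lies at chr8:106625525-106668402 (plus), Esam at chr9:37335663-37345904 (plus), Cldn5 at chr16:18776940-18778353 (plus), Kdr at chr5:76328852-76374483 (minus) and Flt1 at chr5:148373180-148537587 (minus). Tek lies at chr4:94405980-94541667 (plus), Tie1 at chr4:118143796-118162666 (minus) and Emcn at chr3:137004031-137095149 (plus).

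Promoters of 7 of the 10 genes were matched in RefSeq on GRCm38.p6, a later build than mm9, as the 250 bases before the annotated start. Pecam1, Cdh5 and Esam were not matched. The 5 promoters shown belong to Eng and Emcn, whose levels moved together, to the pair of VEGF receptor genes, and to Cldn5, which was called lower with EGCG on day 8 in both depots. They lie at chr2:32646345-32646594 (plus) for Eng, chr3:137340828-137341077 (plus) for Emcn, chr5:75978456-75978705 (minus) for Kdr, chr5:147726012-147726261 (minus) for Flt1 and chr16:18776597-18776846 (plus) for Cldn5. Each is written 5′ to 3′ on the strand of its gene, and capitals mark AGGAAG or its reverse complement CTTCCT, the letters of an ETS family core.
Eng: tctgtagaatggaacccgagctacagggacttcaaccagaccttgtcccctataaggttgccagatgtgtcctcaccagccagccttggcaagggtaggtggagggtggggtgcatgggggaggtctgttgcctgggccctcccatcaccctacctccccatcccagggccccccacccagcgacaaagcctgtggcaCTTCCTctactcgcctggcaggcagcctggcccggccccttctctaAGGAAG
Emcn: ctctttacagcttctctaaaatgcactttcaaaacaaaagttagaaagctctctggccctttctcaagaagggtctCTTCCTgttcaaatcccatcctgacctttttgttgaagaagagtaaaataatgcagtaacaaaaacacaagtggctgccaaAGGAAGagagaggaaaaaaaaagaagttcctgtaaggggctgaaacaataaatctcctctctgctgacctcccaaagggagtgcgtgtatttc
Kdr: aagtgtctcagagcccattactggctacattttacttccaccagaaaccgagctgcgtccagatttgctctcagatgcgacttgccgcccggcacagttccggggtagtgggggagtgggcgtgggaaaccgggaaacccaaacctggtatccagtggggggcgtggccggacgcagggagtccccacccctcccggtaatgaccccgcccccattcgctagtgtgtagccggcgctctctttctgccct
Flt1: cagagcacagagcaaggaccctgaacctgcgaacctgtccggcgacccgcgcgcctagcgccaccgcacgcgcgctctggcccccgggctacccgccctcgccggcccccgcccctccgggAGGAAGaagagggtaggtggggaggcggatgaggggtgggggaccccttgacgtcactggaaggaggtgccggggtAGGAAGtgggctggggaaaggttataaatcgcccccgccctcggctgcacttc
Cldn5: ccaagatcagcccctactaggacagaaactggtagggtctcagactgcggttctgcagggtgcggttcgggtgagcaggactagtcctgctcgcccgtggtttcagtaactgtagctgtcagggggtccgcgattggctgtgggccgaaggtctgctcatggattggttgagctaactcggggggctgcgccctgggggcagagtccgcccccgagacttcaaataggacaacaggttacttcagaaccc
These letters stood at 2 places in the windows of Eng, Emcn and Flt1, at 1 in that of Tie1, and not in those of Kdr, Tek and Cldn5. That is 4 of 7 windows, and 29.5% of the 32851 mouse promoters of the same length held them on either strand. AGATAA or TTATCT, the letters of a GATA core, stood in 0 of the 7 windows and in 10.0% of all promoters. A match of letters is a description of the sequence and not a binding site.

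Reads were present for every member in every library. A floor of 3 reads was set for each gene and library, and 0 of 24 libraries lay at or under it for any of the 10 genes. Cldn5 was nearest to it, with 6 to 265 reads and a floor equal to 0.0401 to 0.129 FPKM. Its 12 BAT libraries held 6 to 60 reads each, so counting error is large there. Kdr had at least 29 reads, Tie1 30, Tek 39 and Emcn 63. Esam had at least 106 reads, Flt1 122, Pecam1 258, Cdh5 305 and Eng 809. The floors cover counting error only, as the reads carry no molecular identifiers and several may stem from 1 molecule. All 10 genes passed the filter of at least 1 FPKM in at least 2 of the 16 tested libraries.

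Summed over the 10 genes, the level was 36.3 ± 0.711 FPKM (SD, n = 2) in WAT day 4 control cultures and 76.2 ± 2.51 with EGCG. On day 8 the WAT sums were 52.0 ± 1.34 and 80.6 ± 0.513 FPKM. In BAT they were 35.3 ± 2.25 and 105.6 ± 2.12 FPKM on day 4, and 43.8 ± 1.03 and 109.1 ± 1.13 FPKM on day 8. Eng alone made up 28.0% of the sum in WAT day 4 EGCG cultures and 54.2% in BAT day 8 EGCG cultures, the lowest and the highest share. In RNA from whole cultures, fewer cells of a type and less RNA per cell cannot be told apart, and neither can more cells and more RNA per cell.

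**Figure D1:**
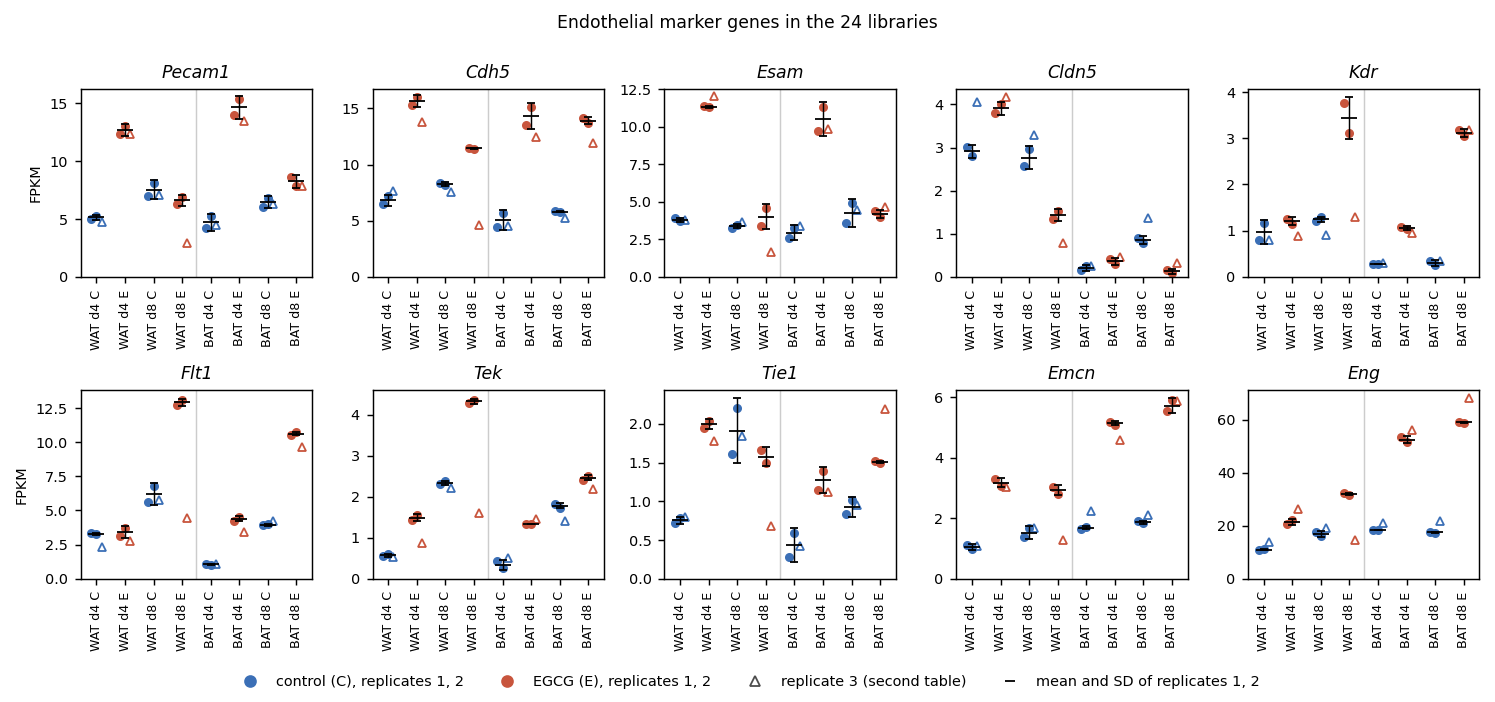
FPKM of the 10 endothelial marker genes in each of the 8 groups, 1 panel per gene, with a point for each library and the mean of replicates 1 and 2. The panels show Eng as the highest gene, at 10.9 to 68.3 FPKM, and Cldn5 in BAT as the lowest, at 0.0936 to 1.36 FPKM.

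For each depot and day, EGCG and control libraries were compared by limma on log2(FPKM + 1), with Benjamini-Hochberg adjustment over 14095 genes. Calls were made where the adjusted p lay under 0.05. Changes on this scale are smaller than the fold of the FPKM values for low genes. On day 4 in WAT, 8 of the 10 genes rose, 0 fell, and Kdr and Flt1 did not pass the test, where 53.7% of all genes tested were called. On day 4 in BAT, 9 rose, 0 fell, and Cldn5 did not pass, against 48.5% of all genes. On day 8 in WAT, 6 rose and Cldn5 fell, against 63.6% of all genes. On day 8 in BAT, 8 rose and Cldn5 fell, against 72.6% of all genes, so that a call by itself set a gene little apart there. The median change of the 10 genes was 0.83 and 1.26 on day 4 in WAT and BAT, where the median over all genes was 0.09 and 0.03. On day 8 it was 0.53 and 0.76, where the median over all genes was 0.17 in both depots. These 4 comparisons use separate libraries.

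**Figure D2:**
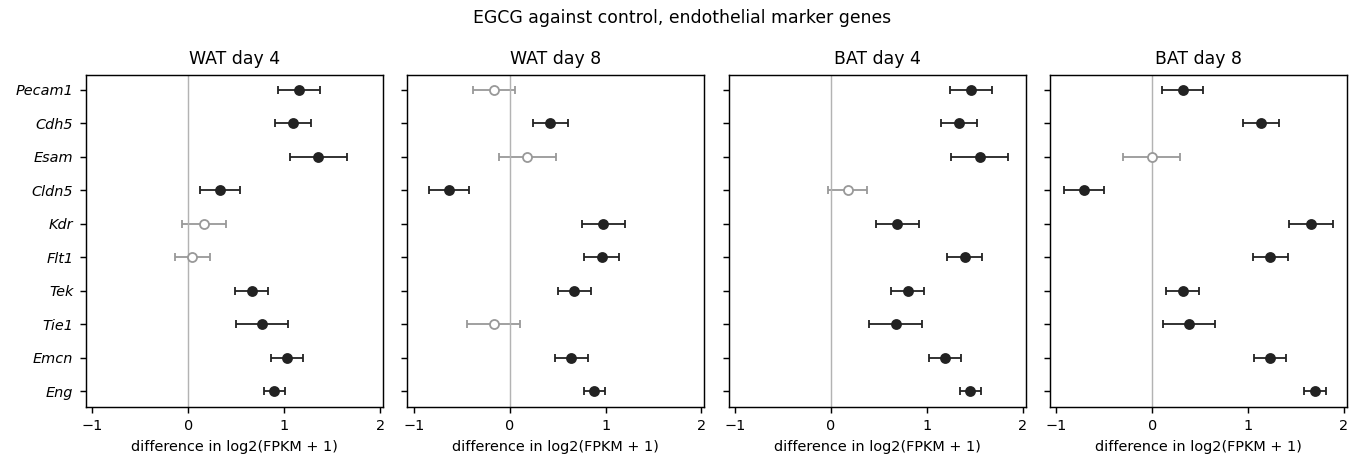
Change with EGCG of each of the 10 genes in the 4 combinations of depot and day, as the difference in log2(FPKM + 1) with its 95% confidence interval, filled points being called and open points not. All points lie above 0 on day 4, while on day 8 Eng, Kdr, Flt1, Emcn, Cdh5 and Tek lie above 0 and Cldn5 below it in both depots.

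Pecam1, the classical adhesion molecule of endothelium, rose 2.47-fold in WAT and 3.11-fold in BAT with EGCG on day 4 by the means of replicates 1 and 2, and showed little of that difference on day 8. In WAT on day 4 the 3 control libraries had 5.02, 5.26 and 4.79 FPKM and the 3 EGCG libraries 12.3, 13.04 and 12.4 FPKM. In BAT on day 4 they had 4.19, 5.24 and 4.46 against 14.0, 15.4 and 13.5 FPKM. The groups did not overlap in either depot, with log2 changes of 1.16 ± 0.099 (SE, adjusted p = 2.01e-06) and 1.46 ± 0.099 (adjusted p = 3.11e-07). The WAT controls of day 8 had 6.96, 8.12 and 7.12 FPKM, and the EGCG libraries had 6.30, 6.95 and 2.96, the last being 6.47 when rescaled. That change, -0.16 (95% interval -0.38 to 0.06), did not pass the test (adjusted p = 0.174), but it was called lower with median-ratio scaling (-0.34, adjusted p = 0.0131) and with quantile normalization (-0.26, adjusted p = 0.049). The BAT values of day 8 were 6.09, 6.81 and 6.33 against 8.67, 7.86 and 7.83 FPKM, and the change of 0.32 ± 0.099 (adjusted p = 0.0126) rested on single libraries and on the scaling. It was not called without control replicate 1 or without EGCG replicate 1 (0.25 in both fits, adjusted p = 0.0955 and 0.0924), with median-ratio scaling (0.15, adjusted p = 0.216) or with quantile normalization (0.20, adjusted p = 0.111).

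Cdh5, the adherens junction cadherin of endothelium, rose in all 4 comparisons. In WAT it went from 6.45, 7.18 and 7.62 FPKM to 15.3, 16.02 and 13.8 FPKM on day 4. The WAT libraries of day 8 were at 8.39, 8.14 and 7.57 FPKM in controls and at 11.48, 11.40 and 4.60 FPKM with EGCG, the last being 10.0 when rescaled. In BAT it went from 4.47, 5.68 and 4.55 to 13.5, 15.1 and 12.4 FPKM on day 4. The BAT values of day 8 went from 5.84, 5.77 and 5.21 to 14.2, 13.7 and 11.9 FPKM. Apart from the WAT day 8 EGCG library of replicate 3 as deposited, every EGCG library stood above every control library of its depot and day. The log2 changes were 1.09, 0.42, 1.34 and 1.13 in that order, each with an SE of 0.085, and the largest adjusted p was 0.000941, in WAT on day 8.

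Esam rose with EGCG on day 4 and was called in neither depot on day 8. On day 4 it rose 2.97-fold in WAT and 3.58-fold in BAT, from 3.92, 3.73 and 3.79 FPKM to 11.4, 11.3 and 12.03 FPKM in the first and from 2.60, 3.29 and 3.38 to 9.74, 11.3 and 9.84 FPKM in the second. The changes of 1.36 ± 0.14 (adjusted p = 6.82e-06) and 1.55 ± 0.14 (adjusted p = 2.21e-06) were the largest of the 10 genes on that day on the log2(FPKM + 1) scale. By the fold of the means, Emcn rose slightly more than Esam in WAT, and Flt1, Tek and Kdr rose more in BAT. On day 8 the control and EGCG libraries overlapped. They had 3.28, 3.46 and 3.69 against 3.41, 4.59 and 1.67 FPKM in WAT, the last being 3.65 when rescaled. In BAT they had 3.62, 4.93 and 4.43 against 4.40, 4.02 and 4.63 FPKM. The day 8 changes were 0.18 (95% interval -0.11 to 0.48, adjusted p = 0.254) in WAT and -0.01 (-0.30 to 0.29, adjusted p = 0.963) in BAT.

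Cldn5 differed between the depots and, on day 8, between the treatments. WAT controls had 3.02, 2.80 and 4.06 FPKM on day 4, which is 219, 170 and 94 reads. BAT controls had 0.158, 0.252 and 0.253 FPKM, which is 9, 16 and 6 reads. With EGCG on day 4 the WAT libraries had 3.80, 4.02 and 4.16 FPKM, so that EGCG and control overlapped at replicate 3. The WAT change of 0.33 ± 0.093 (adjusted p = 0.0112) was lost without control replicate 2 or EGCG replicate 2 (adjusted p = 0.0645 to 0.0711), and with another pseudocount or scaling, where the adjusted p ran from 0.0667 to 0.434. In BAT on day 4 the EGCG libraries had 0.419, 0.301 and 0.468 FPKM, from 26, 21 and 12 reads, and the change of 0.17 (95% interval -0.03 to 0.38) was not called (adjusted p = 0.146), but was with a pseudocount of 0.1 (0.60, adjusted p = 0.0409).

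On day 8 Cldn5 fell with EGCG in both depots, the only one of the 10 genes that this test called lower in either. WAT controls had 2.57, 2.96 and 3.29 FPKM, and EGCG libraries had 1.33, 1.53 and 0.781, the last being 1.70 when rescaled (log2 change -0.63 ± 0.093, adjusted p = 9.58e-05). BAT controls had 0.912, 0.789 and 1.36 FPKM from 60, 44 and 34 reads, and EGCG libraries had 0.166, 0.0936 and 0.328 FPKM from 11, 7 and 8 reads. The BAT change was -0.71 ± 0.093 (adjusted p = 2.43e-05), and the ratio of the mean FPKM values was 0.153 there and 0.517 in WAT. Both groups of each depot were apart in all 3 replicates.

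Kdr, the main signalling receptor for VEGF, was low in every control culture and rose most on day 8. BAT day 8 controls had 0.352, 0.265 and 0.353 FPKM, and the EGCG libraries had 3.18, 3.05 and 3.19 FPKM, a 10.1-fold difference of the means that was the largest fold among the 40 EGCG comparisons of the 10 genes (log2 change 1.65 ± 0.10, adjusted p = 3.76e-08). WAT day 8 libraries had 1.21, 1.29 and 0.917 FPKM in controls and 3.76, 3.11 and 1.30 with EGCG, the last being 2.85 when rescaled (0.98 ± 0.10, adjusted p = 6.49e-06). In BAT on day 4 Kdr went from 0.277, 0.274 and 0.291 to 1.09, 1.03 and 0.958 FPKM (0.69 ± 0.10, adjusted p = 0.000176). All 3 of these comparisons separated EGCG from control libraries. In WAT on day 4 the groups overlapped, at 0.793, 1.16 and 0.793 against 1.26, 1.14 and 0.893 FPKM, and the change of 0.16 (95% interval -0.07 to 0.39) did not pass the test (adjusted p = 0.209).

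Flt1 followed Kdr in which comparisons passed. In WAT on day 4 it was at 3.35, 3.25 and 2.33 FPKM in controls and 3.12, 3.74 and 2.76 FPKM with EGCG, a change of 0.04 (95% interval -0.14 to 0.22, adjusted p = 0.709), whose sign turned with the scaling of the libraries. The BAT libraries of day 4 went from 1.09, 1.01 and 1.05 to 4.26, 4.54 and 3.41 FPKM, 4.18-fold by the means (1.40 ± 0.083 on the log2 scale, adjusted p = 1.19e-07). On day 8 it was at 5.62, 6.76 and 5.76 FPKM in WAT controls and at 12.7, 13.1 and 4.43 with EGCG, the last being 9.66 when rescaled (0.96 ± 0.083, adjusted p = 1.19e-06). Those of day 8 in BAT were at 3.91, 4.02 and 4.20 FPKM in controls and 10.6, 10.7 and 9.67 with EGCG (1.23 ± 0.083, adjusted p = 7.10e-08). In these 3 comparisons the groups were apart, the rescaled library included. Over the 16 tested libraries Flt1 and Kdr had a Pearson correlation of 0.887 in log2(FPKM + 1), and Flt1 and Tek one of 0.920. The libraries share treatment and day, so these values describe the pattern only.

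Tek and Tie1, the angiopoietin receptor and its partner, both rose in both depots on day 4 and in BAT on day 8, and in WAT on day 8 Tek rose and Tie1 was not called. Tek had 0.544, 0.601 and 0.524 FPKM in WAT day 4 controls and 1.43, 1.55 and 0.861 with EGCG (0.66 ± 0.079, adjusted p = 2.94e-05). The BAT values of day 4 were 0.427, 0.253 and 0.499 against 1.33, 1.33 and 1.44 FPKM (0.80 ± 0.079, adjusted p = 6.11e-06). Its day 8 values in WAT were 2.30, 2.38 and 2.204 FPKM against 4.28, 4.37 and 1.61, the last being 3.51 when rescaled (0.67 ± 0.079, adjusted p = 1.46e-05). Control and EGCG were apart in each of these comparisons, except for that library as deposited. In BAT on day 8 the values were 1.83, 1.73 and 1.40 FPKM against 2.42, 2.50 and 2.19 (0.32 ± 0.079, adjusted p = 0.00335), and with median-ratio scaling the adjusted p was 0.056.

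Tie1 had 0.723, 0.787 and 0.792 FPKM in WAT day 4 controls and 1.95, 2.04 and 1.78 with EGCG (0.77 ± 0.12, adjusted p = 0.000278). BAT libraries of day 4 had 0.276, 0.588 and 0.422 against 1.15, 1.39 and 1.12 FPKM (0.67 ± 0.12, adjusted p = 0.000804). Both day 4 comparisons were free of overlap. On day 8 the WAT values of 1.61, 2.21 and 1.84 FPKM in controls and 1.66, 1.49 and 0.686 with EGCG, the last being 1.50 when rescaled, overlapped (-0.17, 95% interval -0.44 to 0.10, adjusted p = 0.257). Tie1 in BAT on day 8 was at 0.838, 1.02 and 0.949 FPKM against 1.52, 1.50 and 2.19 (0.38 ± 0.12, adjusted p = 0.0149). That call was lost without control replicate 1, EGCG replicate 1 or EGCG replicate 2 (adjusted p = 0.0509 to 0.0925) and with median-ratio scaling (0.28, adjusted p = 0.0657).

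Emcn rose in all 4 comparisons. It was at 1.13, 0.974 and 1.09 FPKM in WAT day 4 controls and at 3.29, 3.06 and 3.02 with EGCG. On day 8 in WAT it was at 1.37, 1.67 and 1.66 FPKM and at 3.04, 2.81 and 1.27 with EGCG, the last being 2.78 when rescaled. In BAT it went from 1.66, 1.72 and 2.25 to 5.19, 5.09 and 4.59 FPKM on day 4, and from 1.91, 1.84 and 2.09 to 5.54, 5.90 and 5.86 on day 8. The means rose 3.02-fold, 1.93-fold, 3.04-fold and 3.06-fold in that order, and the largest adjusted p was 1.74e-05. EGCG and control libraries did not overlap, that library as deposited aside.

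Eng had the highest level per length of the 10 genes in every group. WAT day 4 controls had 10.9, 11.1 and 13.8 FPKM and EGCG libraries 20.6, 22.1 and 26.2 FPKM. WAT day 8 controls had 17.8, 16.002 and 19.2 FPKM and EGCG libraries 32.3, 31.6 and 14.5, the last being 31.7 when rescaled. BAT day 4 controls had 18.5, 18.6 and 20.9 FPKM and EGCG libraries 53.4, 51.6 and 56.1. The BAT day 8 values were 17.7, 17.3 and 21.7 FPKM in controls and 59.2, 58.9 and 68.3 with EGCG. The log2 change was 0.90 in WAT on day 4, 0.88 in WAT on day 8, 1.45 in BAT on day 4 and 1.70 in BAT on day 8, each with an SE of 0.050, and the largest adjusted p was 7.38e-08. Every EGCG library stood above every control library of its depot and day except the WAT day 8 one as deposited. In order of level, the control groups ran from WAT day 4 through WAT day 8 to BAT day 8 and BAT day 4. WAT day 4 lay under the others, and the neighbours did not differ beyond their spread (adjusted p = 0.426 for the depots on day 8 and 0.193 for the 2 days in BAT).

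Read together with replicate 3, all 10 genes had the direction of the tested libraries on day 4 in both depots, and 9 did in BAT on day 8. In WAT on day 8, 4 did as deposited and all 10 did after every library of replicate 3 was rescaled. Rescaling left 9 on day 4 in WAT and 10 in both BAT comparisons. Of the 33 member calls for EGCG, 29 kept their call and direction in each of the planned settings and with each of the 16 libraries left out in turn. The other 4 were Cldn5 in WAT on day 4 and Pecam1, Tie1 and Tek in BAT on day 8, with their values above.

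The difference between depots in the effect of EGCG was tested as an interaction. On day 4 the effect was larger in BAT than in WAT for 3 of the 10 genes, by 1.35 ± 0.12 for Flt1 (adjusted p = 1.24e-05), by 0.56 ± 0.071 for Eng (adjusted p = 0.000206) and by 0.53 ± 0.15 for Kdr (adjusted p = 0.0197), against 28.1% of all genes called in either direction. The call for Kdr was lost without WAT control replicate 2, WAT EGCG replicate 2 or BAT EGCG replicate 1 (adjusted p = 0.0582 to 0.0766). On day 8 it was larger in BAT for 6 genes, led by Eng (0.82 ± 0.071, adjusted p = 7.31e-06) and Cdh5 (0.71 ± 0.12, adjusted p = 0.000774), and smaller for Tek (-0.36 ± 0.11, adjusted p = 0.0246), against 39.2% of all genes. Of these 7 calls, those for Eng, Cdh5, Kdr and Emcn were kept with each library left out. The one for Pecam1 was lost without WAT control replicate 2, WAT EGCG replicate 1, BAT control replicate 1 or BAT EGCG replicate 1 (adjusted p = 0.0606 to 0.0701). The one for Tie1 was lost without WAT control replicate 2, WAT EGCG replicate 2, BAT control replicate 1 or either BAT EGCG library (adjusted p = 0.0622 to 0.0900), and the one for Tek without any of 6 of the 8 libraries, all but WAT control replicate 2 and BAT control replicate 2 (adjusted p = 0.0516 to 0.0733). With a pseudocount of 0.1 neither Tie1 (adjusted p = 0.0683) nor Tek (adjusted p = 0.195) was called, and on the scale of recovered reads the values were 0.0803 and 0.304. Cldn5, at -0.08 (95% interval -0.37 to 0.21, adjusted p = 0.671), was called on both of those scales (-1.16, adjusted p = 0.0125, and -1.75, adjusted p = 0.0193). As Cldn5 fell with EGCG in both depots on day 8, this negative difference is a larger fall in BAT. The BAT libraries behind it held 7 to 60 reads.

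The effect was then compared between the days, where a lower effect can be a smaller rise or a turn from a rise to a fall. In WAT the effect of EGCG was lower on day 8 than on day 4 for all 4 junction genes, with differences of -1.32 ± 0.14 for Pecam1, -1.17 ± 0.19 for Esam, -0.96 ± 0.13 for Cldn5 and -0.67 ± 0.12 for Cdh5, and also for Tie1 (-0.94 ± 0.18) and Emcn (-0.38 ± 0.11). It was larger on day 8 for both VEGF receptor genes, by 0.81 ± 0.15 for Kdr and 0.92 ± 0.12 for Flt1. These 8 calls had adjusted p-values of 2.00e-05 to 0.0127, and 49.4% of all genes were called. In BAT it was lower on day 8 for Esam (-1.56 ± 0.19), Pecam1 (-1.14 ± 0.14), Cldn5 (-0.89 ± 0.13) and Tek (-0.48 ± 0.11) and larger for Kdr (0.96 ± 0.15, adjusted p = 0.000185) and Eng (0.24 ± 0.071, adjusted p = 0.0122), against 55.4% of all genes. The Eng call in BAT was lost with median-ratio scaling (0.10, adjusted p = 0.260) and quantile normalization (0.12, adjusted p = 0.196), the Emcn call in WAT with quantile normalization (-0.24, adjusted p = 0.107), and the Cldn5 call in WAT on the scale of recovered reads (-1.38, adjusted p = 0.0527). Flt1 in BAT changed by -0.17 (95% interval -0.42 to 0.09, adjusted p = 0.257) and was called lower with a pseudocount of 0.1 (-0.56, adjusted p = 0.00607) and on the scale of recovered reads (-0.64, adjusted p = 0.00113).

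Control cultures were compared between day 4 and day 8. In WAT 7 of the 10 genes rose and 0 fell, against 61.0% of all genes called, 3907 of 14095 being called higher, with Tek highest at 4.08-fold of the means, Tie1 at 2.53-fold and Flt1 at 1.88-fold. Pecam1 (1.47-fold), Eng (1.54-fold), Emcn (1.44-fold) and Cdh5 (1.21-fold) were the others. The Cdh5 call (adjusted p = 0.0251) was lost without day 4 replicate 1 or either day 8 replicate (adjusted p = 0.0545 to 0.167), and that of Emcn without either library numbered 2 (adjusted p = 0.0515 to 0.0596) and with quantile normalization (0.16, adjusted p = 0.0946). In BAT 6 rose and 0 fell, against 69.2% of all genes called, 4050 of them higher. Cdh5 and Emcn were not among the 6. With median-ratio scaling both were called higher (0.30, adjusted p = 0.00796, and 0.19, adjusted p = 0.0463), and Cdh5 also with quantile normalization (0.25, adjusted p = 0.0234). Tek rose 5.23-fold, Cldn5 4.15-fold and Flt1 3.77-fold, and each held with every library left out. Pecam1, Tie1 and Esam rose as well, but each lost its call without day 4 replicate 1, and the last of them and Tie1 also without day 8 replicate 2 (adjusted p = 0.0559 to 0.181 over these fits).

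With EGCG the genes went different ways between the days. In WAT, Flt1 (3.77-fold), Tek (2.91-fold), Kdr (2.86-fold) and Eng (1.50-fold) rose while Pecam1, Cdh5, Esam and Cldn5 fell, Esam to 0.353 and Cldn5 to 0.366 of the day 4 mean, against 59.5% of all genes called. In BAT, Kdr (2.94-fold), Flt1 (2.42-fold), Tek (1.85-fold) and Eng (1.12-fold) rose and Esam, Pecam1 and Cldn5 fell, against 58.0% of all genes. The BAT call of Eng (0.17 ± 0.050, adjusted p = 0.0139) was lost without day 4 replicate 2 or either day 8 replicate (adjusted p = 0.0524 to 0.0904). That of Cldn5 (adjusted p = 0.0284) was lost without day 4 replicate 1 or day 8 replicate 2 (adjusted p = 0.144 to 0.165) and with quantile normalization (-0.22, adjusted p = 0.0753). The control and EGCG series share no library, and the EGCG contrasts above use the same libraries as both.

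Cldn5, Kdr and Flt1 were lower in BAT than in WAT control cultures on both days. The mean of Cldn5 in BAT was 0.0704 of that in WAT on day 4 (log2 difference -1.70 ± 0.093, adjusted p = 1.42e-07) and 0.307 on day 8 (-1.02 ± 0.093, adjusted p = 3.17e-06), and no BAT control library reached the lowest WAT control library. Kdr in BAT was at 0.282 of WAT on day 4 and 0.247 on day 8, and Flt1 at 0.319 and 0.641. On day 4, Cldn5, Kdr, Flt1, Cdh5 and Tek were lower and Emcn (1.61-fold) and Eng (1.69-fold) higher in BAT, against 55.8% of all genes called. On day 8, those 5 and Tie1 were lower and 0 were higher, against 53.6% of all genes. Emcn was called higher on day 8 with a pseudocount of 0.1 (0.29, adjusted p = 0.0476). With 1 library left out, the day 8 difference of Emcn ran from 0.10 to 0.28 and that of Esam from 0.08 to 0.44. On day 4 Esam was called lower with median-ratio scaling (-0.42, adjusted p = 0.0236) and quantile normalization (-0.45, adjusted p = 0.0196). Pecam1 was called lower there with quantile normalization (-0.28, adjusted p = 0.0473). Tie1 on day 4 (-0.30 ± 0.12, adjusted p = 0.0567) was also called lower with a pseudocount of 0.1 (-0.75, adjusted p = 0.0251), with both other scalings (-0.37 and -0.39, adjusted p = 0.0307 and 0.0251), on the scale of recovered reads (-0.90, adjusted p = 0.0131), with the replicate block (adjusted p = 0.0382) and without BAT replicate 2 (-0.46, adjusted p = 0.0175). Tek lost its day 4 call without either WAT library or BAT replicate 2 (adjusted p = 0.0527 to 0.208). It lost its day 8 call without replicate 2 of either depot (adjusted p = 0.0592 to 0.0735), with a pseudocount of 0.1 (adjusted p = 0.0784) and on the scale of recovered reads (adjusted p = 0.116).

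With EGCG the depots differed in Eng, Emcn and Cldn5 on both days. BAT stood above WAT in Eng by 2.46-fold on day 4 and 1.85-fold on day 8 and in Emcn by 1.62-fold and 1.95-fold, and Cldn5 in BAT was at 0.0921 and 0.0909 of WAT. On day 4, Flt1 was also higher and Tie1 also lower in BAT, against 48.7% of all genes called. Flt1 lost that call without WAT replicate 1 or BAT replicate 2 (adjusted p = 0.0841 to 0.127) and with quantile normalization (0.16, adjusted p = 0.155), and Tie1 without either WAT library or BAT replicate 1 (adjusted p = 0.0553 to 0.125), with a pseudocount of 0.1 (adjusted p = 0.0636) and on the scale of recovered reads (adjusted p = 0.0757). On day 8, Pecam1 and Cdh5 were also higher and Flt1 and Tek also lower in BAT, against 38.4% of all genes. In replicate 3, 5 of the 7 calls of that day kept their direction as deposited, and 5 after all its libraries were rescaled. After that rescaling Pecam1 was at 6.36 in BAT against 6.47 FPKM in WAT and Cdh5 at 9.7 against 10.0 FPKM, the opposite direction. Without the filter on low values Pecam1, Cdh5 and Flt1 were not called (adjusted p = 0.0544 to 0.0854). Median-ratio scaling and quantile normalization also lost Pecam1 and Cdh5 (adjusted p = 0.0594 to 0.175). Pecam1 (0.28), Cdh5 (0.26) and Flt1 (-0.26) each lost the call without any single one of the 4 libraries (adjusted p = 0.0618 to 0.219).

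**Figure D3:**
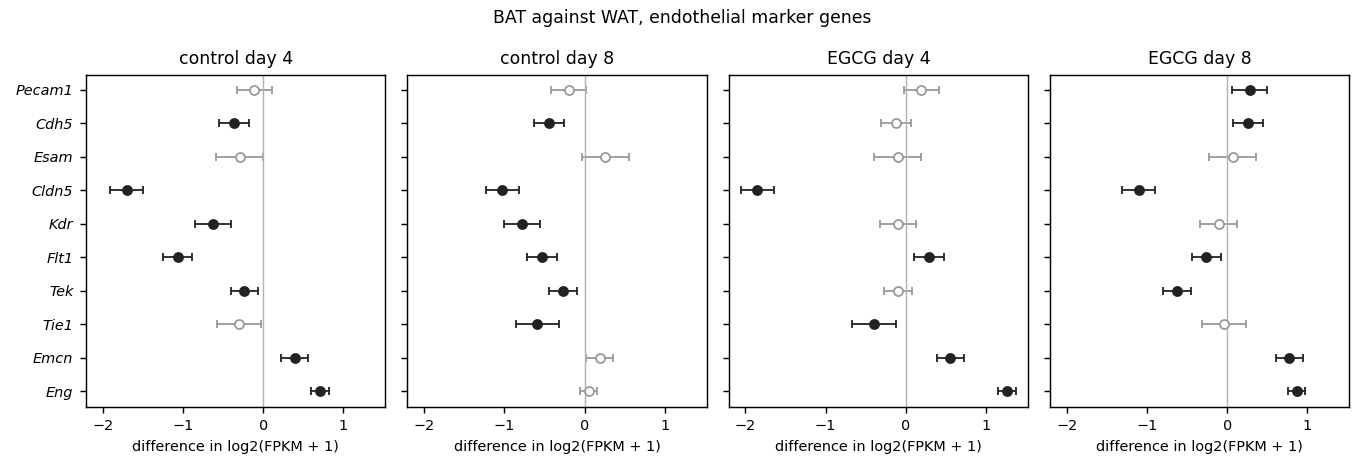
Difference between BAT and WAT of each of the 10 genes on the log2(FPKM + 1) scale, with its 95% confidence interval, for control and EGCG cultures on each day. Cldn5 lies below 0 in all 4 comparisons, from -1.85 to -1.02, and Eng lies above 0 with EGCG on both days.

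A further list of 14 endothelial genes was read beside the 10. Of these, 12 passed the filter on low values, and Vwf, the clotting factor of endothelium, and Ushbp1 did not. With EGCG on day 4, 8 rose and 1 fell in WAT and 7 rose and 0 fell in BAT. On day 8 the counts were 1 and 5 in WAT and 5 and 3 in BAT, where 63.6% and 72.6% of all genes were called, so that the 6 and 8 calls of 12 set the list little apart. On day 4 the shares of all genes were 53.7% and 48.5%. The median change of the list was 0.51 in WAT and 0.53 in BAT on day 4, and 0.11 and 0.15 on day 8, against 0.09, 0.03, 0.17 and 0.17 over all genes. The sum of the 14 genes in replicates 1 and 2 went from 20.1 and 21.4 to 31.0 and 31.5 FPKM in WAT on day 4 and from 48.0 and 48.5 to 29.7 and 32.6 on day 8. In BAT it went from 15.6 and 16.9 to 25.6 and 27.9 FPKM on day 4 and from 18.6 and 19.7 to 22.1 and 21.0 on day 8. Within the list Cd34 reached the highest level, ranging from 1.18 to 29.0 FPKM over the 24 libraries. Mmrn2, an extracellular matrix glycoprotein of endothelium, rose in all 4 comparisons, by 1.13, 0.79, 1.11 and 1.05 on the log2 scale in WAT on day 4 and day 8 and in BAT on day 4 and day 8. Plvap, which forms the diaphragms of capillary openings, rose on day 4 (0.90 in WAT and 0.88 in BAT) and fell on day 8 (-0.95 and -1.03). Its means went from 2.14 to 4.86 FPKM in WAT on day 4 and from 6.65 to 2.95 on day 8. Erg, a transcription factor of the endothelial lineage, rose in 3 of the 4 and changed by 0.25 in WAT on day 8 (adjusted p = 0.167). Gpihbp1, which carries lipoprotein lipase across capillary endothelium, fell on day 8 in both depots, from 70 and 79 reads to 6 and 0 in replicates 1 and 2 of WAT and from 15 and 15 to 0 and 0 in BAT. It lay at or under 3 reads in 10 of the 24 libraries. Vwf was measured at 11 to 410 reads and at most 1.06 FPKM.

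Markers of other cell types moved with EGCG too, and their part in the values of the 10 genes was not tested. Of 8 macrophage and leukocyte genes, 7 passed the filter, and Ptprc, the pan-leukocyte marker, did not, with 7 to 243 reads. On day 4, 6 of the 7 rose in WAT and 4 in BAT with 0 lower. On day 8, 0 rose, and 7 fell in WAT and 6 in BAT. Of all genes, 53.7% and 48.5% were called on day 4 in WAT and BAT, and 63.6% and 72.6% on day 8. The summed level in replicates 1 and 2 went from 74.4 and 79.4 to 192 and 197 FPKM in WAT on day 4, and from 115 and 137 to 57.0 and 60.4 on day 8. In BAT it went from 174 and 183 to 375 and 417 FPKM on day 4, and from 118 and 119 to 59.8 and 61.0 on day 8. The sum of the 10 endothelial genes was higher with EGCG on both days, and Eng made up 39.6% of it in WAT and 54.2% in BAT day 8 EGCG cultures. The sum of the further endothelial list, like that of the macrophage list, was lower with EGCG in WAT on day 8. The median change there was 0.11 for the further list and -0.85 for the macrophage list, against 0.17 over all genes. Of the 12 tested genes of the further list, 6 were not called there, 5 fell and 1 rose. Cd34 and Lyz2, the genes with the highest levels in these 2 lists, reached 29.0 and 382 FPKM.

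Of 9 genes of mural cells, the pericytes and smooth muscle cells around vessels, 3 rose and 2 fell in WAT on day 4, 3 rose and 1 fell in WAT on day 8, 5 rose and 2 fell in BAT on day 4, and 3 rose and 4 fell in BAT on day 8. In that order 53.7%, 63.6%, 48.5% and 72.6% of all genes were called. The median change of the 9 genes was 0.13, -0.19, 0.77 and -0.36. Notch3 rose in all 4, whereas Rgs5, a pericyte marker, rose in WAT on day 4 (0.54) and fell in BAT on day 8 (-0.62). Their summed level was 165 to 199 FPKM in the 4 tested WAT libraries of day 4. It was 257 and 340 FPKM in WAT day 8 controls and 487 and 504 with EGCG. In BAT it was 142 and 157 FPKM in day 4 controls, 510 and 603 with EGCG, 315 and 354 in day 8 controls and 1012 and 1106 with EGCG. Acta2 reached by far the highest level of the 9 genes, ranging from 37.5 to 989 FPKM over the 24 libraries. Of 4 lymphatic endothelial genes, Prox1, the lymphatic master regulator, did not pass the filter, at 1 to 112 reads. Pdpn, which stromal cells also carry, rose in all 4 comparisons by 2.10 to 2.54. Lyve1, which macrophages also carry, rose in WAT on day 4 (0.59) and fell there on day 8 (-1.03). Flt4, the receptor for Vegfc, rose in the other 3 and changed by 0.05 in WAT on day 8 (adjusted p = 0.718). The lymphatic list summed to 17.3 to 60.9 FPKM in the 8 tested control libraries and 92.5 to 225 FPKM in the EGCG libraries, nearly all of it Pdpn.

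**Figure D4:**
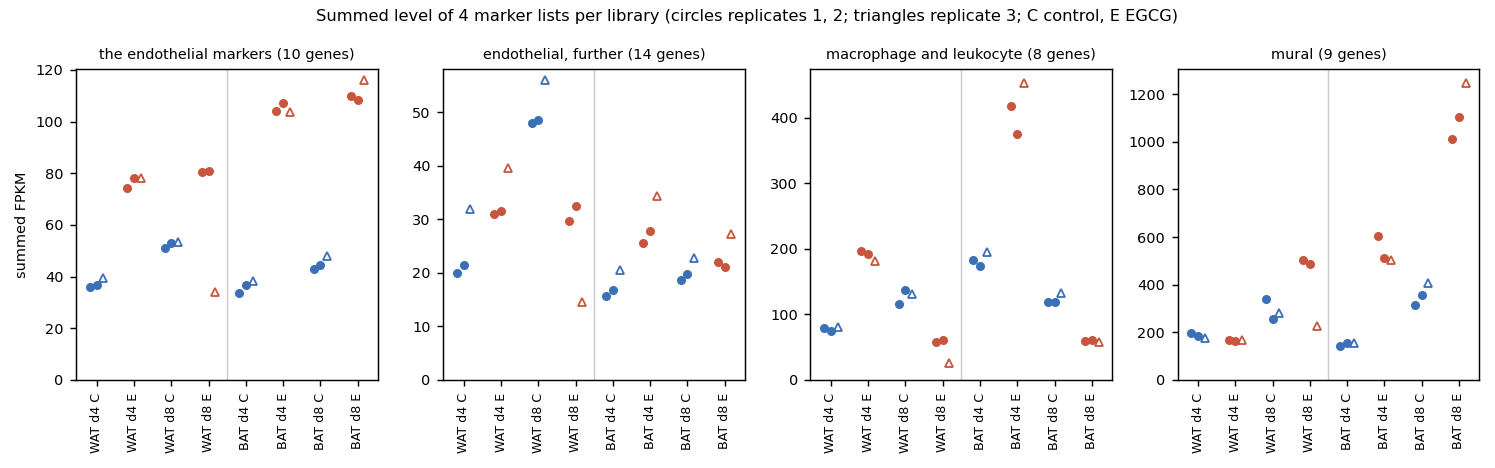
Summed FPKM in each library of the 10 endothelial markers, of the 14 further endothelial genes, of the 8 macrophage and leukocyte genes and of the 9 mural genes, with 1 panel per list, circles for replicates 1 and 2 and triangles for replicate 3. With EGCG the sum of the 10 endothelial markers lies above its control on both days, that of the further endothelial genes lies below it in WAT on day 8, and that of macrophages and leukocytes lies above it on day 4 and below it on day 8, with the low triangle of WAT day 8 EGCG being the library that stood apart.

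All 6 adipocyte markers fell with EGCG in all 4 comparisons, their summed level going from 1954 and 2236 to 375 and 411 FPKM in WAT on day 4 and from 4279 and 4901 to 129 and 145 on day 8. In BAT it went from 4860 and 5677 to 1145 and 1161 FPKM on day 4 and from 8532 and 8653 to 284 and 290 on day 8. Of all genes, 53.7% and 63.6% were called in WAT on day 4 and day 8, and 48.5% and 72.6% in BAT. Of 7 progenitor and fibroblast genes, 2 rose and 2 fell in WAT on day 4, 0 rose and 6 fell in WAT on day 8, 1 rose and 4 fell in BAT on day 4, and 0 rose and 5 fell in BAT on day 8. Their sum was 7436 to 9792 FPKM in WAT on day 4, 9283 and 11958 in WAT day 8 controls and 5067 and 5396 with EGCG. In BAT it was 4129 to 6088 FPKM on day 4 and 2244 to 3371 on day 8, lower with EGCG on both days. The sum of the 10 endothelial genes stayed between 33.7 and 109.9 FPKM in the tested libraries. It lay below the progenitor and the adipocyte sum in each of them, and it came nearest to the adipocyte sum in WAT day 8 EGCG cultures, at 80.3 and 81.0 against 129 and 145 FPKM.

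Genes of vascular signalling were read last, because the receptors among the 10 act through them. Of a list of 21, 18 passed the filter. Dll4, Aplnr and Gdf2 did not, Gdf2 lying at or under 3 reads in 21 of 24 libraries. With EGCG 12 rose and 5 fell in WAT on day 4, 8 rose and 4 fell in WAT on day 8, 10 rose and 2 fell in BAT on day 4, and 9 rose and 7 fell in BAT on day 8. The shares of all genes called were 53.7%, 63.6%, 48.5% and 72.6% in that order. Vegfa, the ligand of Kdr and Flt1, rose in WAT on day 4 from 73.0 ± 0.803 to 205.8 ± 13.7 FPKM (SD, n = 2; log2 change 1.48, adjusted p = 8.67e-10). It was at 97.2 ± 2.06 and 94.3 ± 1.83 FPKM in WAT on day 8 and at 115.2 ± 1.36 and 112.8 ± 2.57 in BAT on day 4, where it was not called, and it fell in BAT on day 8 from 224.3 ± 0.0514 to 87.2 ± 0.811 FPKM. The comparison in which Vegfa rose was the one in which neither Kdr nor Flt1 was called, and a relation between ligand and receptor levels was not tested.

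Pgf, a ligand of Flt1 but not of Kdr, rose in all 4 comparisons, from 7.78 to 24.5 and from 10.6 to 31.2 FPKM in WAT and from 5.89 to 27.8 and from 20.6 to 44.4 in BAT on day 4 and day 8. Angpt1, the activating ligand of Tek, fell in all 4, from 2.35 to 0.809 and from 3.86 to 0.701 FPKM in WAT and from 4.19 to 1.15 and from 6.55 to 1.23 in BAT. Angpt2, which can act against it, rose on day 4 from 13.9 to 33.1 FPKM in WAT and from 13.1 to 34.6 in BAT. On day 8 it rose from 8.47 to 10.8 FPKM in WAT and fell from 14.7 to 9.48 in BAT. Of the partners of Eng, Acvrl1, a type I receptor, rose in all 4, from 6.75 to 11.7 and from 20.8 to 32.7 FPKM in WAT and from 4.48 to 13.8 and from 16.9 to 33.8 in BAT. Tgfb1, a ligand, also rose in all 4, most in BAT on day 8, from 12.8 to 50.9 FPKM. Nrp1, a VEGF co-receptor, fell in all 4, with log2 changes of -1.02 to -0.40.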

How the data were processed

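RNA had been extracted with Trizol and sequenced with standard Illumina libraries in 24 libraries. The authors deposited FPKM values in 2 tables, with 16 libraries of replicates 1 and 2 and 8 of replicate 3. The submitters' processing notes name FastQC (0.11.9), HISAT2 (2.2.0), HTSeq (0.11) and mm9, and the strandedness of counting is not given in the sources used here. Symbols were matched through GENCODE vM1, whose longest transcript equalled the deposited gene length in 37310 of 37310 genes. FPKM times length gave whole multiples of 1 read (tolerance 0.01) in 100.0% of values, so reads were recovered. Genes with at least 1 FPKM in at least 2 of 16 libraries (14095) were tested with limma 3.58.1 in R 4.3.3 on log2(FPKM + 1), with 1 mean per group, a trended prior and 8 residual degrees of freedom, and Benjamini-Hochberg adjustment within each of 16 contrasts. All 10 genes, the members of the marker and signalling lists and, for the 2 highest genes, the 3 most alike genes could be named. The members and lists were chosen with earlier results of these data known. Alternatives were a pseudocount of 0.1, filters of 0.1 FPKM or none, median-ratio scaling, quantile normalization, recovered reads scaled to library size with 0.5 reads added, a replicate block and each library left out. The scripts were tested on simulated data.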

Additional observations from a re-analysis of the deposited data

Results flagged for a closer look

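The effect of EGCG differed between depots or days, by the limma test of the difference itself, in 24 of the 40 differences tested for the 10 genes. Of all genes tested, 28.1% were called for BAT minus WAT on day 4 and 39.2% on day 8. For day 8 minus day 4 the shares were 49.4% in WAT and 55.4% in BAT. Each value is a difference of 2 EGCG effects on the log2(FPKM + 1) scale, and no explanation was weighed.

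BAT minus WAT, the effect on day 4 was 1.354 higher for Flt1, 0.5582 for Eng and 0.5299 for Kdr. On day 8 it was 0.8151 higher for Eng, 0.7076 for Cdh5, 0.6763 for Kdr, 0.5833 for Emcn, 0.5519 for Tie1 and 0.4779 for Pecam1, and the difference was -0.358 for Tek.

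Day 8 minus day 4, the effect in WAT differed by -1.318 for Pecam1, -1.171 for Esam, -0.9608 for Cldn5, -0.94 for Tie1, -0.6681 for Cdh5 and -0.3828 for Emcn, and by 0.9176 for Flt1 and 0.8147 for Kdr. In BAT it differed by -1.557 for Esam, -1.143 for Pecam1, -0.8862 for Cldn5 and -0.4841 for Tek, and by 0.9611 for Kdr and 0.2444 for Eng. Kdr was thus higher in all 4 of these differences, and Esam and Pecam1 were the genes with the lowest values in both depots.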

How the results depend on the processing

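Member calls, of 40 in each family, numbered 33 for EGCG against control, 28 for day 8 against day 4, 25 for BAT against WAT and 24 for differences between EGCG effects. In that order, the single contrasts called 48.5% to 72.6%, 58.0% to 69.2%, 38.4% to 55.8% and 28.1% to 55.4% of all genes. Over the other pseudocount, filters, scalings and recovered reads the member calls ran from 30 to 33, 27 to 30, 22 to 26 and 22 to 24, and with 1 library left out from 31 to 33, 25 to 29, 22 to 26 and 21 to 27. In all, 93 of 110 calls were kept in each planned setting, 89 with each library left out and 85 in both. No called change took the opposite sign in any of these fits. The sources do not pair equal replicate numbers, and deviations of equal numbers correlated at -0.226 to 0.143 over 6080 genes. A replicate block, which gave 33, 28, 26 and 24 calls, was therefore used only as an alternative among the planned settings. With the WAT day 4 control numbers crossed, an alternative chosen after seeing the data, the block gave 33, 28, 27 and 24 calls. EGCG values stood above the control in 35 of 40 member comparisons by the means of replicates 1 and 2, in 30 by replicate 3 as deposited and in 34 by replicate 3 after rescaling, also chosen after seeing the data.

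Median-ratio scaling moved the median change over all genes from 0.17 to 0.01 in WAT and from 0.17 to 0.02 in BAT for EGCG on day 8, and from 0.09 to -0.02 in WAT on day 4. It moved the BAT against WAT median in day 4 controls from 0.15 to 0.02, and quantile normalization to 0.03, and the BAT control day median from -0.10 to 0.02. The split of all calls into higher and lower went from 4853 and 2714 to 3343 and 4131 for EGCG in WAT on day 4, from 6302 and 2660 to 4087 and 3888 in WAT on day 8, and from 6549 and 3682 to 5100 and 4741 in BAT on day 8. For the 10 genes those splits were 8 and 0, 6 and 1 and 8 and 1, and then 7 and 0, 6 and 2 and 5 and 1. The cause of the other changes was not tested.

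Signs that turned all belonged to changes not called. With a pseudocount of 0.1 the values were 0.1328 for Tie1 and 0.1847 for Cldn5 (BAT minus WAT effect, day 4) and -0.3797 for Tek (day 8 minus day 4 effect, WAT), and with recovered reads 0.2449, 0.3763 and -0.4882. Median-ratio scaling gave -0.06778 for Flt1 (EGCG, WAT day 4), 0.06738 for Eng (day, BAT control), 0.007507 for Cldn5 (BAT minus WAT effect, day 8), -0.07699 for Tek (day 8 minus day 4 effect, WAT) and -0.05931 for Emcn (the same in BAT). Quantile normalization gave -0.07917 for Flt1 (EGCG, WAT day 4), -0.02986 for Kdr and 0.02967 for Eng (day, BAT control), -0.02372 for Eng (depot, day 8 control), -0.007706 for Esam (depot, day 8 EGCG) and 0.01156 for Cldn5 (BAT minus WAT effect, day 8). That last difference of Cldn5 was called with a pseudocount of 0.1 (-1.157) and with recovered reads (-1.749).

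With 1 library left out, 14 such changes took either sign. Over those fits Flt1 ran from -0.06176 to 0.1421 (EGCG, WAT day 4) and Esam from -0.1884 to 0.1725 (EGCG, BAT day 8). Between days, Cldn5 ran from -0.1292 to 0.01878 (WAT control), Kdr from -0.01156 to 0.08414 (BAT control) and Cdh5 from -0.1118 to 0.04167 (BAT EGCG). Between depots, Pecam1 ran from -0.2424 to 0.02325 (day 4 control), Eng from -0.02195 to 0.1233 (day 8 control), and in day 8 EGCG Kdr from -0.2099 to 0.0004972, Tie1 from -0.08396 to 0.01057 and Esam from -0.1017 to 0.2388. Of the differences between effects, Tie1 ran from -0.2563 to 0.0594 (BAT minus WAT, day 4), Eng from -0.08506 to 0.0602 and Tek from -0.02321 to 0.04706 (days, WAT) and Emcn from -0.0006569 to 0.07635 (days, BAT). Depth limits Cldn5 in BAT, where 6 to 60 reads stand behind each value.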

Other observations

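Over the 16 libraries of replicates 1 and 2, the genes whose log2(FPKM + 1) was most like that of Eng were Parvb, with a Pearson correlation of 0.983, Shisa4 (0.977) and Nav2 (0.9745). For Cdh5 they were Mmrn2 (0.959), Dock6 (0.946) and C230081A13Rik (0.943). Among the 10 genes themselves, Eng and Emcn had a correlation of 0.958 and Pecam1 and Esam one of 0.914, while Eng and Cldn5 had one of -0.619 and Flt1 and Esam one of -0.023. The libraries share depot, day and treatment, so these values describe likeness of pattern over 8 groups and carry no p-value.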
